A study of Rattus norvegicus with 9 samples.

Results

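Transcripts of the Hox genes and of their Meis, Pbx and Cdx partners were followed in rat embryos with a human superoxide dismutase transgene, in RNA of the ventral part of the spinal cord. The members were all probe sets on the array whose annotation gives 1 gene symbol of the Hox, Meis, Pbx or Cdx families. They were 32 of 31042 probe sets, for 30 genes: 22 Hox genes, 3 Meis genes, 3 Pbx genes and 2 Cdx genes. The 39 Hox genes of the RefSeq rat table (GRCr8) were covered in part, with 5 of 11 in cluster A, 6 of 10 in cluster B, 4 of 9 in cluster C and 7 of 9 in cluster D.

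Each of the 9 Affymetrix arrays carried total RNA from 1 pool of 5 embryos at embryonic day 14. In 4 pools the embryos carried mutant human SOD1 with the change G93R, from a line that the titles mark Roth, and in 4 pools they carried wild-type human SOD1, from a line marked Chan. The ninth pool was a negative control titled SDneg, which has no replicate and whose description speaks both of a negative control and of positive embryos. Mutation, rat line and insertion site cannot be told apart, since each transgene is represented by 1 line name. The promoter that drives each transgene, the number of litters in a pool and the level at which the cord was cut are not given in the sources used here. A tag, le2, that the labels do not explain stands in the sample titles of replicates 2, 3 and 4 of each transgene, and is absent from each replicate 1 and from the negative control. The study's labels place the mutant against the wild-type transgene, and both against the negative control.

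Hox genes code for homeodomain transcription factors. They lie in clusters, and a gene's place in its cluster, given by its paralog number, matches the part of the body axis where it is switched on: low numbers in the hindbrain and upper neck, middle numbers in the brachial and thoracic cord, high numbers in the lumbar and sacral cord. In the ventral cord they set the column and pool identity of motor neurons. Meis and Pbx proteins are homeodomain partners that bind DNA together with Hox proteins, and Cdx proteins switch on Hox genes of the trunk.

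Values below are intensities on the authors' linear scale. Log2 differences come from limma on intensity plus a pseudocount of 8.25, and p-values are unadjusted unless named as adjusted by Benjamini-Hochberg over all 18625 probe sets tested. A level says nothing about another gene's level, because each probe set has its own response, so genes were compared only by their differences between pools. In tissue pools, fewer cells of a type and less RNA per cell cannot be told apart.

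Of the 32 members, 28 lay above the filter of a mean intensity of about 17.3, for 27 genes, of which 20 were Hox genes. The 4 others were near background. Hoxb13, the most caudal member, lay between 0.418 and 2.26 in all 9 pools. Hoxd11 lay between 9.05 and 25.2. Cdx1 lay between 3.44 and 13 in the transgenic pools and at 1.34 in the negative control. A second probe set for Hoxd3 lay between 0.883 and 15.1. The Hox genes above the filter ran from paralog 1 (Hoxd1) to paralog 11 (Hoxa11), so rostral and caudal Hox genes were both measured in the same pools.

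The pools were alike over all probe sets, with array medians of 31.0 to 33.9 and correlations of 0.976 to 0.986 between arrays. The 3'/5' ratio of beta-actin, a measure of RNA integrity and labelling, differed between the groups. Mutant pools had 7.31 ± 0.465 (SD, n = 4), wild-type pools 11.3 ± 5.29 (SD, n = 4) and the control pool 6.66, and every wild-type pool lay above every mutant pool (two-sided exact permutation test, p = 0.0286, the smallest that 4 against 4 allows). Wild-type replicate 2 stood apart at 19.2, and some counts, class medians and differences of Hox genes and Cdx2 are given below with and without it. For the Meis and Pbx genes, the listed genes beside Hox and the cell type markers, differences without it are not given. The GAPDH 3'/5' ratio did not part the groups fully. It ran from 2.492 to 2.5871 among mutant pools and from 2.5853 to 3.5607 among wild-type pools, with 2.6795 for the control. These ranges overlapped (two-sided exact permutation test, p = 0.0571), and the highest value was again that of wild-type replicate 2. Of 9 listed motor neuron genes 7 had a probe set and all 7 lay above the filter, among them Isl1 and Chat. Of 8 ventral progenitor and floor plate genes 5 lay above it: Nkx6-1, Nkx6-2, Nkx2-2, Nes and Sox2. The other 3, Shh at 0.625 to 2.5, Foxa2 at 2.64 to 16.4 and Olig2 at 1.40 to 10.5, lay below it.

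Between mutant and wild-type hSOD1, no member passed an adjusted p of 0.05. The lowest adjusted p among the 28 was 0.697, for Hoxa5, and over all probe sets 3 were called (0.0161%). At an unadjusted p under 0.05 there were 3 members, beside 4.93% of all probe sets. Hoxa5 was the 1 member higher in the mutant pools (2.75% of all probe sets), and Hoxa10 and Hoxd3 were the 2 lower (2.18%). The groups did not overlap in 2 members, Hoxa5 and the weaker Hoxc4 probe set, beside 2.95% of all probe sets. Both were higher in the mutant pools, as were 1.71% of all probe sets. Without wild-type replicate 2 the count at an unadjusted p under 0.05 was 6 of 28, beside 3.91% of all probe sets: Hoxa5, Hoxa7, Hoxb6 and the weaker Hoxc4 probe set higher, Hoxa10 and Hoxd3 lower, with none past the adjusted threshold. With the log2 actin ratio as a covariate it was also 6 of 28, beside 3.65% of all probe sets, again with none past the adjusted threshold: Hoxa5, Hoxa7, Hoxb6, Hoxd4 and the weaker Hoxc4 probe set higher and Hoxd3 lower.

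**Figure D1:**
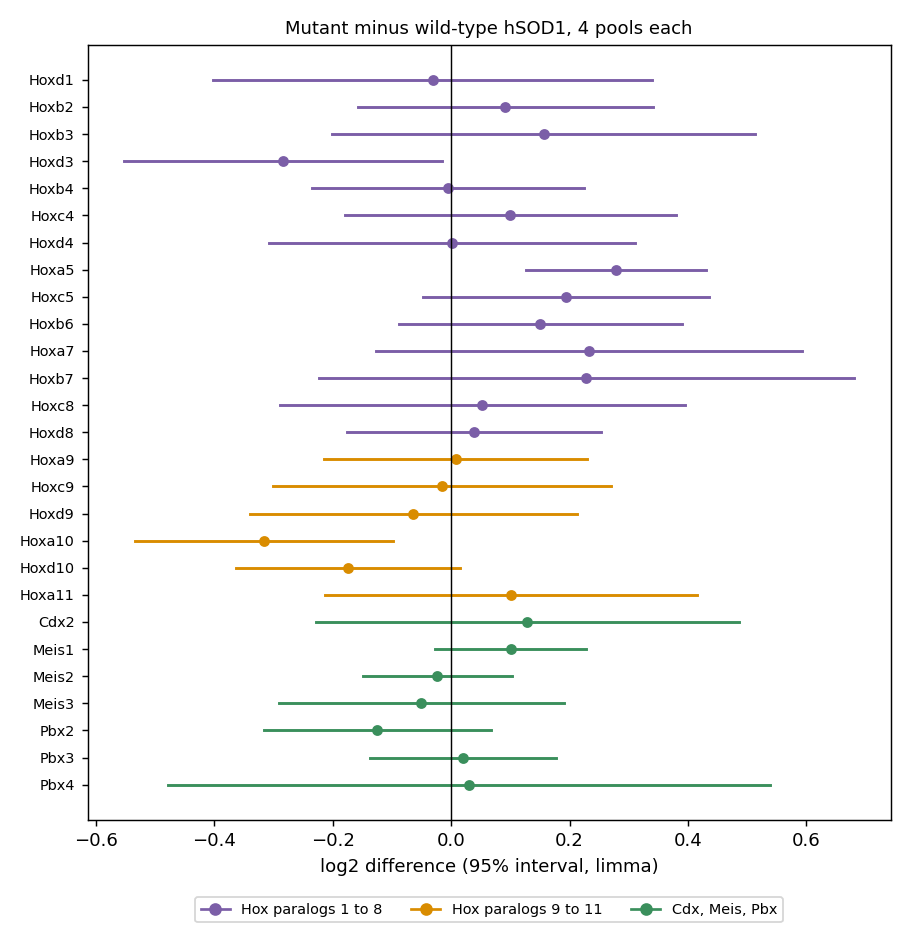
Log2 difference of mutant minus wild-type hSOD1 (x axis, log2 units) with its 95% interval from limma, 4 pools each, for the 27 genes above the filter (y axis: Hox genes by paralog number, then Cdx, Meis and Pbx). The intervals of Hoxa5, Hoxa10 and Hoxd3 lie off 0, and the points for paralogs 4 to 8 lie at or right of 0.

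The rostral Hox genes of paralogs 1 to 3 pattern the hindbrain and upper neck. Hoxd3 had 371, 412, 404 and 499 in the mutant pools, 545, 432, 626 and 465 in the wild-type pools, while the negative control had 527. The groups overlapped, since mutant replicate 4 lay above wild-type replicates 2 and 4. The means were 421 ± 54.6 and 517 ± 86.5 (SD, n = 4 each), a log2 difference of -0.28 with a 95% interval of -0.55 to -0.02 (limma, adjusted p = 0.929). Over the 23 alternative settings the difference kept its sign, from -0.42 to -0.19, but the unadjusted threshold was missed in 7 of them, 5 of which left out 1 pool. The other 3 genes of this group had log2 differences of -0.03 (Hoxd1), 0.09 (Hoxb2) and 0.16 (Hoxb3), all with intervals across 0. In Hoxb3 the pools ran from 309 to 452 in the mutant and from 256 to 433 in the wild-type group.

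The genes of paralogs 4 to 8, which mark the neck, brachial and thoracic cord, lay mostly on one side by group mean. By pool, their median departures overlapped between the groups, as given below. Of 10 genes, 9 had a higher mean in the mutant pools and 1, Hoxb4 at -0.00, a lower one, and the median log2 difference was 0.13 beside 0.01 over all probe sets, of which 53.7% were positive. Hoxa5 alone of these 10 genes had an unadjusted p under 0.05. Without wild-type replicate 2 all 10 were higher, with a median of 0.17. With the log2 actin ratio as a covariate all 10 were higher, with a median of 0.27. Every wild-type pool had a higher actin ratio than every mutant pool, and wild-type replicate 2 lay far above the rest. That fit therefore cannot part the ratio from the group, and is no second check beside leaving out that pool. The share of positive differences over all probe sets is given for the main fit alone. Without wild-type replicate 3 the count was 6 higher and 4 lower with a median of 0.09, the fewest higher in any alternative, and without wild-type replicate 4 it was 7 and 3. Over all alternatives the median stayed between 0.08 and 0.27. The actin ratio moved with the group label; its part in these differences was not tested beyond these fits.

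Hoxa5, a gene of the neck and brachial cord that acts in phrenic motor neurons, had 2311, 2079, 2423 and 2251 in the mutant pools and 2029.9, 1850.3, 1782 and 1802 in the wild-type pools, with 2299 in the negative control. Every mutant pool lay above every wild-type pool, and the negative control lay among the mutant pools. The means were 2266 ± 143 and 1866 ± 113 (SD, n = 4 each), a log2 difference of 0.28 with a standard error of 0.0702 and an interval of 0.13 to 0.43 (limma, adjusted p = 0.697). The difference was 0.25 to 0.32 in all 23 alternatives, and was as large without wild-type replicate 2 (0.28).

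Hoxc4, a gene of the neck region, was read by 2 probe sets. The weaker had 42.9, 39.9, 36.8 and 35.2 in the mutant pools, 34.1, 33.8, 30.6 and 18.4 in the wild-type pools, while the negative control had 35.5. The groups did not overlap, by a margin of 35.2 against 34.1, and the log2 difference was 0.35 with an interval of -0.02 to 0.71 (limma, adjusted p = 0.929). The brighter probe set had means of 642 ± 92.2 and 599.9 ± 99.5 (SD, n = 4 each), overlapping groups and a difference of 0.10 with an interval of -0.18 to 0.38. Both had the same sign, and the gene as a whole did not pass a test.

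The remaining genes of this group had intervals that crossed 0. The log2 differences were 0.00 for Hoxd4, 0.19 for Hoxc5, 0.15 for Hoxb6, 0.23 for Hoxa7, 0.23 for Hoxb7, 0.05 for Hoxc8 and 0.04 for Hoxd8. Hoxa7, a thoracic gene, had 258, 289, 247 and 292 in the mutant pools and 268, 316, 165 and 197 in the wild-type pools. Wild-type replicate 2 was the highest of the 8 and wild-type replicate 3 the lowest, so the wild-type SD of 68.2 exceeded the mutant SD of 22.5. Without replicate 2 the Hoxa7 difference was 0.38 with a standard error of 0.144. Hoxb6 had 384, 466, 411 and 482 in the mutant pools and 408, 459, 344 and 359.6 in the wild-type pools, and its difference without wild-type replicate 2 was 0.23 with a standard error of 0.104.

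**Figure D2:**
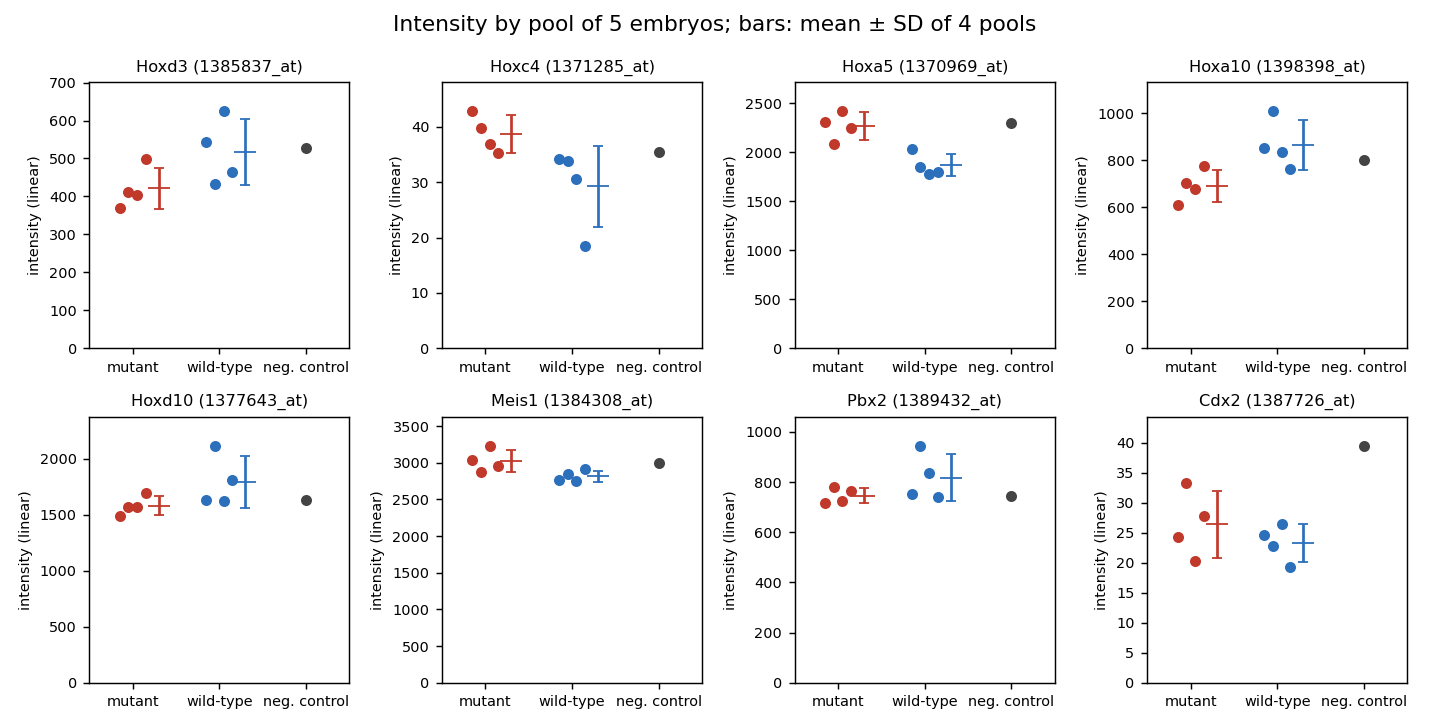
Intensity (y axis, linear scale from 0) of 8 probe sets, for Hoxc4 the weaker one, in each pool of 5 embryos, for mutant, wild-type and negative control pools (x axis). Bars give the mean ± SD of 4 pools. Mutant Hoxa5 lies above wild type in every pool, Hoxa10 and Hoxd3 overlap, and the negative control for Cdx2 is above all transgenic pools.

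The caudal group had 6 measured genes above the filter, of paralogs 9 to 11, which pattern the thoracic and lumbar cord. Of these, 2 had a higher mean in the mutant pools and 4 a lower one, with a median log2 difference of -0.04. That direction was not stable: without wild-type replicate 2 it was 4 higher and 2 lower with a median of 0.05, and with the actin covariate the median was 0.12.

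Hoxa10, a gene of the lumbar cord that acts in motor neuron columns of the hindlimb, had 609.6, 703, 678 and 776 in the mutant pools, 850.4, 1011, 835 and 761 in the wild-type pools, while the negative control had 802. The groups overlapped through mutant replicate 4 and wild-type replicate 4. Means were 692 ± 68.8 and 864 ± 105 (SD, n = 4 each), and the log2 difference was -0.32 with an interval of -0.53 to -0.10 (limma, adjusted p = 0.929). The value was -0.24 without wild-type replicate 2, with a standard error of 0.0913. With the actin covariate it was -0.17 with a standard error of 0.103, and on the arrays with the le2 tag alone -0.26 with a standard error of 0.121; in these 2 of 23 alternatives the unadjusted threshold was not passed.

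Hoxd10, which acts with Hoxa10 in the lumbar cord, had 1491, 1568, 1566 and 1694 in the mutant pools and 1631, 2116, 1619 and 1805 in the wild-type pools, with 1629.9 in the negative control. Wild-type replicate 2 was the highest pool and mutant replicate 4 lay within the wild-type range. The log2 difference was -0.17 with an interval of -0.36 to 0.02, and it was -0.09 without wild-type replicate 2, with a standard error of 0.0713. Hoxa9, Hoxc9 and Hoxd9 had differences of 0.01, -0.02 and -0.06, and Hoxa11 had 0.10, each with an interval across 0.

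The promoters of these 2 lumbar genes, whose means were lower in the mutant pools, are shown as examples. They were picked from the 18 member genes with an entry, among them Hoxd3, whose mean was lower too. They are windows of 300 bases around the start site, most of it upstream, from RefSeq GRCr8, with CpG dinucleotides in capitals. Hoxa10 had 2 entries, of which the first is shown. The Hoxa10 window lies at chr4:82671441-82671740 on the minus strand and that of Hoxd10 at chr3:80001697-80001996 on the plus strand.
Hoxa10: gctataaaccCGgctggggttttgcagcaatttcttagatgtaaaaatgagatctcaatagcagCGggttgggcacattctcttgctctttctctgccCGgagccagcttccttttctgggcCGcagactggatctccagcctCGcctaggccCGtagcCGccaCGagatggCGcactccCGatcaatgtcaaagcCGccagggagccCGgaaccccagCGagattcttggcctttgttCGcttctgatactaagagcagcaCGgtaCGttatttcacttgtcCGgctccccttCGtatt
Hoxd10: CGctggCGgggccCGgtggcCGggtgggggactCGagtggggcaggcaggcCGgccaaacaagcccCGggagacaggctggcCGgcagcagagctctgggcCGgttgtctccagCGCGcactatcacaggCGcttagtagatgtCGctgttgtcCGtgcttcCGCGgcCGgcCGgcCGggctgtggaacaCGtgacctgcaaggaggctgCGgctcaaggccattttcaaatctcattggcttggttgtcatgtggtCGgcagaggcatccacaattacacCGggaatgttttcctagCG
The Hoxa10 window held 18 CpG dinucleotides at 54.7% GC and the Hoxd10 window 24 at 64.7% GC.

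Promoters of 18 of the 30 member genes were found, and Hoxa5 is among the 12 that are named only. The 18 had a median of 61.7% GC and 20.5 CpG dinucleotides, ranging from 5 to 49, beside 51.7% and 7 over all 33469 promoters. On both strands, TGATNNAT, a Pbx-Hox word, lay in 2 of 18 (11.1%) beside 9.10% of all promoters. The Meis word TGACAG lay in 0 of 18 beside 19.0%. The half-site AGGTCA of nuclear receptors such as the retinoic acid receptor lay in 3 of 18 (16.7%) beside 16.2%, and Hoxd10 above holds 1 match. The letters are a description of these windows and bear on no factor's binding.

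The cofactors differed little between the groups. Meis1, a partner that stabilises Hox binding, had 3030.1, 2870.1, 3234 and 2959 in the mutant pools and 2766, 2845, 2746 and 2909 in the wild-type pools, with 2998 in the negative control. The groups overlapped by 1 pair of pools, and the log2 difference was 0.10 with an interval of -0.03 to 0.23. Meis2 had a mutant SD of 11 around 2928 and a difference of -0.02 with an interval of -0.15 to 0.10. Meis3 had -0.05.

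Pbx2, one of the TALE homeodomain cofactors, had 718, 779, 725 and 765 in the mutant pools and 751, 946, 835 and 741 in the wild-type pools, with 746 in the negative control. The difference was -0.12 with an interval of -0.32 to 0.07, and the sign turned to 0.0064 with the actin covariate. Pbx3 had 0.02 with an interval of -0.14 to 0.18, and Pbx4 0.03 with an interval of -0.48 to 0.54. Pbx4 was dim, at 14.4, 33.4, 31.5 and 34.9 in the mutant pools and 25, 40.3, 17.9 and 27.1 in the wild-type pools, with 17.1 in the negative control. Cdx2, which switches on trunk Hox genes, had 24.3, 33.4, 20.3 and 27.8 in the mutant pools and 24.6, 22.7, 26.5 and 19.2 in the wild-type pools, with a difference of 0.13 and an interval of -0.23 to 0.49.

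The departure of each pool from the mean of the 8 transgenic pools showed how the Hox genes varied along the paralog order. Over the 6 caudal genes the median departure was -0.14, 0.04, -0.14 and 0.14 in the mutant pools, -0.06, 0.31, -0.06 and 0.03 in the wild-type pools, while the negative control had -0.02. Over the 14 genes of paralogs 1 to 8 it was -0.05, 0.18, 0.04 and 0.05, then -0.01, 0.15, -0.17 and -0.14, and -0.12. For the 10 genes of paralogs 4 to 8 alone it was 0.01, 0.12, 0.10 and 0.03, then -0.02, 0.16, -0.23 and -0.14, and -0.13. Wild-type replicate 2 was the highest pool there, so the groups overlapped. The median over all 18625 tested probe sets stayed between -0.0055 and 0.0298 in every pool. A median over so many probe sets does not show how far the median of 6 or 14 genes can vary. The caudal median was thus highest in wild-type replicate 2, the pool with the actin ratio of 19.2; each of the 6 genes was highest of the 8 transgenic pools there, while Hoxa11 was higher still in the negative control. Caudal minus rostral departure was -0.09, -0.13, -0.18 and 0.08 in the mutant pools, -0.04, 0.17, 0.12 and 0.17 in the wild-type pools, while the negative control had 0.10. Mutant replicate 4 and wild-type replicate 1 lay on the other side of their groups, so the groups overlapped. Where the cord was cut, which could shift this balance, is not given in the labels, and its part was not tested.

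**Figure D3:**
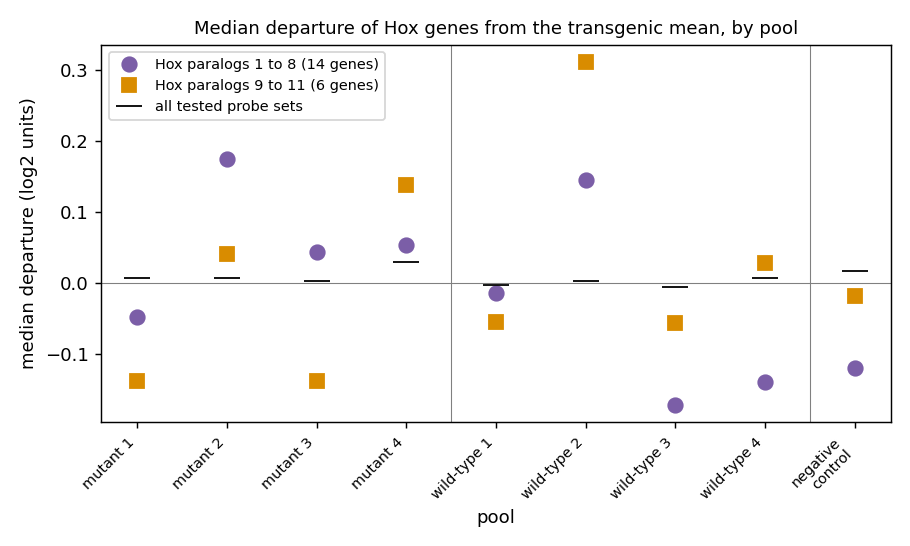
Median departure from the mean of the 8 transgenic pools (y axis, log2 units) in each pool (x axis) for 14 Hox genes of paralogs 1 to 8, 6 Hox genes of paralogs 9 to 11 and all tested probe sets. Wild-type replicate 2 has the highest caudal median, 0.31.

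**Figure D4:**
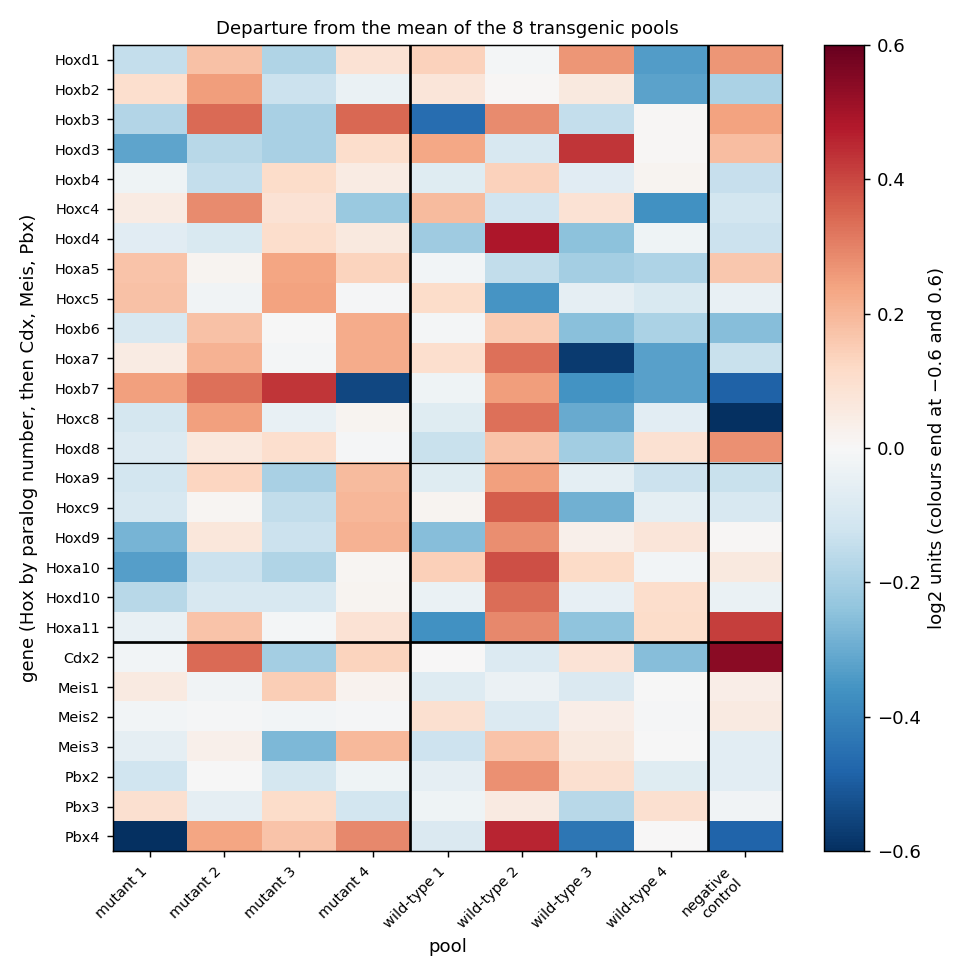
Departure of each gene from the mean of the 8 transgenic pools (colour, log2 units, ending at -0.6 and 0.6) by gene (y axis) and pool (x axis). Hoxa5 is above 0 in all mutant pools and below 0 in all wild-type pools, and all 6 caudal Hox genes are above 0 in wild-type replicate 2.

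Against the negative control, 0 of 28 members passed the adjusted threshold for both transgenes together, as did 0% of all probe sets. With 1 negative control pool, the fit assumes that it varies like the transgenic pools, and mutant and wild-type comparisons share it. At an unadjusted p under 0.05 there were 2 members, beside 3.12% of all probe sets. Hoxc8 was higher in the transgenic pools (1.8% of all probe sets) and Cdx2 lower (1.32%). All 8 transgenic pools lay on 1 side of the negative control in 5 members, beside 19.7% of all probe sets. Hoxc8 and Hoxb6 lay above it (9.19% of all) and Hoxd8, Hoxa11 and Cdx2 below it (10.5% of all). The le2 tag runs in part with this comparison, since the control lacks it. With the tag as a covariate the members under an unadjusted p of 0.05 were 3, all lower and beside 3.59% of all probe sets: Hoxa11 at -0.62, Hoxb3 at -0.56 and Hoxd8 at -0.38. Hoxb3 was -0.24 without the covariate, and Hoxd9 went from -0.01 to -0.27.

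Hoxc8, a gene of the brachial and thoracic cord, had 39.5, 52.8, 41.7 and 43.8 in the mutant pools, 40.7, 56.5, 33.6 and 41.1 in the wild-type pools, while the negative control had 24.2. The transgenic mean was 43.7 ± 7.42 (SD, n = 8), and the log2 difference was 0.67 with an interval of 0.15 to 1.18 in limma. The transgenes were also set against the same control pool one at a time. It was 0.69 for mutant, with an interval of 0.15 to 1.24, the 1 member under an unadjusted p of 0.05 beside 2.29% of all probe sets. It was 0.64 for wild type, with an interval of 0.09 to 1.18, 1 of 3 such members (with Hoxa5 and Cdx2, both lower) beside 4.28% of all probe sets. Without wild-type replicate 2 the value was 0.61 with a standard error of 0.208. Over 20 alternatives it ran from 0.42 to 0.78. In 1 of them, with the le2 tag as a covariate, it missed the unadjusted threshold, at 0.57 with a standard error of 0.286.

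Cdx2 was the counterpart, at 39.6 in the negative control beside a transgenic mean of 24.9 ± 4.50 (SD, n = 8), all 8 pools below. The difference was -0.54 with an interval of -1.07 to -0.01, and without wild-type replicate 2 it was still -0.54 but no longer passed the unadjusted threshold. The threshold was missed in 13 of 20 alternatives, in each of which the sign stayed negative. Hoxa11, at 108, 126, 110.2 and 119 in the mutant pools and 84.7, 138, 92.9 and 121 in the wild-type pools, lay below 151 in the negative control in every pool. Its difference was -0.42 with an interval of -0.89 to 0.05. Without wild-type replicate 2 it was -0.47 with a standard error of 0.185 and passed the unadjusted threshold, beside 4.06% of all probe sets. Hoxa11 missed that threshold in the main fit and in 17 of 21 alternatives. Hoxd8 had 468, 518, 533 and 494 in the mutant pools and 451, 560.3, 428 and 529 in the wild-type pools, beside 601, a difference of -0.27 with an interval of -0.59 to 0.05. Without wild-type replicate 2 it was -0.30 with a standard error of 0.131 and passed the unadjusted threshold, beside the same 4.06%. Hoxd8 likewise missed that threshold in the main fit and in 17 of 21 alternatives.

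Hoxb6, a thoracic gene, had a transgenic mean of 414 ± 50.9 (SD, n = 8) beside 343 in the negative control, a difference of 0.26. Hoxb7 had 83.5, 89.1, 95.9 and 44.7 in the mutant pools and 67.8, 84.0, 52.2 and 53.5 in the wild-type pools beside 47.0, a difference of 0.49 with an interval of -0.19 to 1.17. Mutant replicate 4 was the only pool below the negative control. Hoxa5 lay at -0.16 for both transgenes with an interval of -0.39 to 0.06, from -0.02 for mutant and -0.30 for wild type. Meis1 and Meis2 had -0.04 and -0.05, and Pbx4 0.48 with an interval of -0.29 to 1.24. Of 20 Hox genes 12 were higher and 8 lower in the transgenic pools, and of the 10 in paralogs 4 to 8 there were 8 higher, with a median of 0.13 beside -0.02 over all probe sets. Over all members 16 of 28 had a positive difference, beside 46.5% of all probe sets.

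**Figure D5:**
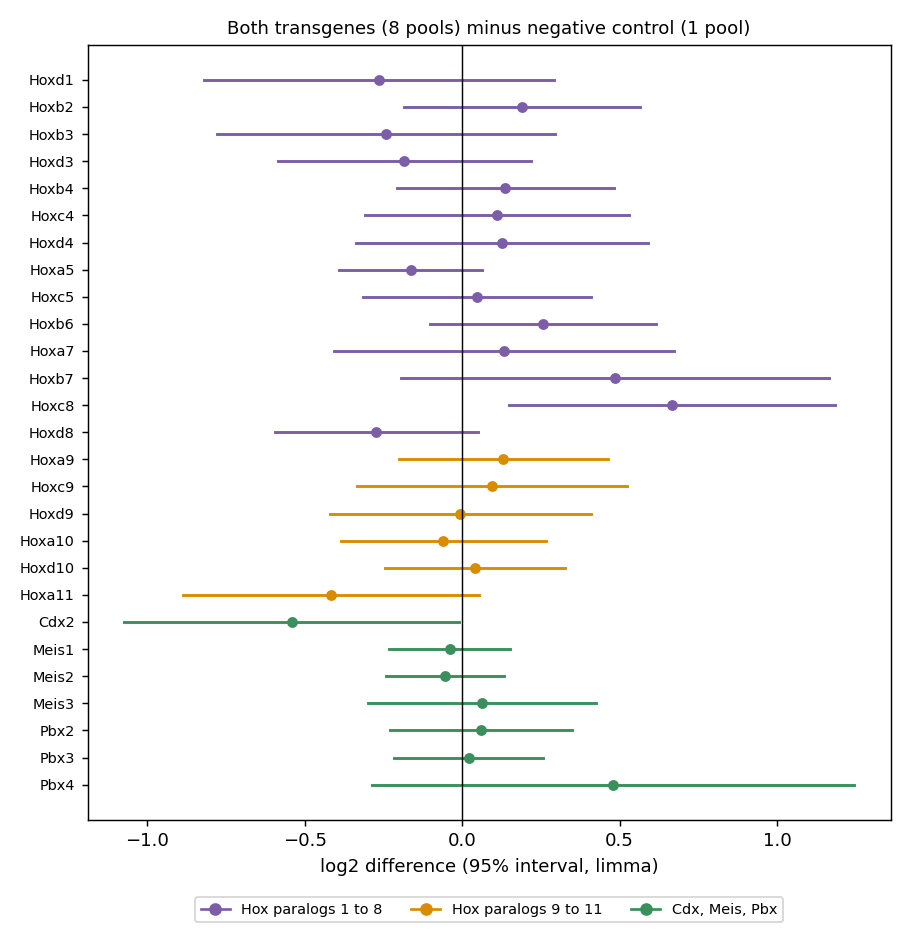
Log2 difference of both transgenes (8 pools) minus the negative control (1 pool) (x axis, log2 units) with its 95% interval from limma, by gene as above (y axis). Hoxc8 lies right of 0 and Cdx2 left of 0, and the widths reflect the single control.

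Genes that act beside the Hox genes did not pass the adjusted threshold in either comparison. Of 9 other TALE and homeodomain partners above the filter, 3 were higher and 6 lower in the mutant pools, with a median log2 difference of -0.04. Irx1, a homeodomain gene, had 169.7 ± 19.7 in the mutant and 213 ± 47.2 in the wild-type pools (SD, n = 4 each), a difference of -0.30 with a standard error of 0.143. Its highest pool was wild-type replicate 2, at 282. Of 21 Polycomb and Trithorax genes, which hold Hox genes silent or open, 9 were higher and 12 lower, with a median of -0.03 and none under an unadjusted p of 0.05.

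Of 11 measured upstream signals of the Hox pattern, such as the retinoic acid and Fgf pathways, 3 were higher and 8 lower, with a median of -0.05. The 1 gene of 11 under an unadjusted p of 0.05, beside 4.93% of all probe sets, was Aldh1a2, the retinoic acid synthesising enzyme. It had 2426, 1348, 2012 and 994 in the mutant pools, 1197, 783, 1333 and 1102 in the wild-type pools, while the negative control had 1124, a log2 difference of 0.56 with a standard error of 0.232. The pools overlapped widely, as mutant replicate 4 lay below 3 of the wild-type pools.

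Of 19 genes listed as motor neuron subtype genes downstream of Hox, 10 were higher and 9 lower. In each direction 3 were under an unadjusted p of 0.05, beside 2.75% of all probe sets higher and 2.18% lower. Whether each listed gene acts downstream of Hox was not tested. The 3 higher were Aldh1a2, Runx1 and Isl1, and Aldh1a2 is the same probe set counted above as an upstream signal. Runx1 had 111 ± 15.1 in the mutant and 70.7 ± 24.2 in the wild-type pools, with a log2 difference of 0.64. Isl1, a factor of motor neuron and sensory neuron identity, had 468 ± 104 and 337 ± 36.9 with 0.45. The 3 lower were Zeb2, Alcam and Etv1. Zeb2 had 85.5 ± 8.27 and 115 ± 15.2 with -0.39. Alcam had 790 ± 57.4 and 991 ± 226 with -0.30, and was highest in wild-type replicate 2, at 1282. Etv1 had 513 ± 52.8 and 619 ± 84.3 with -0.26 (SD, n = 4 each, throughout).

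Cell type markers were read beside the Hox differences. Each sum took all listed genes with a probe set, also those below the filter. Summed intensities follow the brightest probe sets of a list and compare pools, not genes. The summed level of 7 motor neuron genes was 3938 to 5601 in the mutant pools, 3610 to 4399 in the wild-type pools, while the negative control had 3735, with 6 of 7 higher in the mutant pools. Prph alone had 2067 to 2985, 2090 to 2632 and 1847. The summed level of the sensory ganglion genes was 3474 to 5196, 3099 to 3495 and 3568. Most of it was Sncg, at 2843 to 4433, 2614 to 2927 and 2968. All 3 of the genes above the filter were higher in the mutant pools. Of these, 2 (Isl1 and Sncg) were under an unadjusted p of 0.05, beside 2.75% of all probe sets higher. Isl1 stands in the motor neuron list too, so the 2 lists are not independent. The other 4 of 7 with a probe set were below the filter. Of 3 hindbrain genes above the filter, 2 were higher and 1 lower in the mutant pools. The 5 hindbrain genes with a probe set had sums of 143 to 229, 148 to 226 and 199. Phox2a, a factor of hindbrain motor neurons, had 40.005, 69.9, 40.7 and 74.3 in the mutant and 31.2, 34.4, 47.5 and 35.8 in the wild-type pools, with overlap and a difference of 0.47 with a standard error of 0.199, under an unadjusted p of 0.05. Gbx2 had -0.34 with a standard error of 0.180 and Fev 0.09. All 3 ventral interneuron genes above the filter were lower in the mutant pools, with a median of -0.25, that of Gata2. Gata2 had 88.7, 119, 98.1 and 113 in the mutant and 112, 198, 117 and 95.4 in the wild-type pools. Wild-type replicate 2 was the highest, and the other wild-type pools lay within the mutant range. Sim1 was dim and had -0.07. The 4 genes with a probe set had sums of 227 to 318, 258 to 440.5 and 266, and the 440.5 was wild-type replicate 2. Gata3, of V2b interneurons, was the 1 under an unadjusted p of 0.05, at -0.42 with a standard error of 0.164, beside 2.18% of all probe sets lower. Of 5 progenitor genes above the filter 2 were higher and 3 lower, and the 8 with a probe set had sums of 372 to 481, 391 to 479.8 and 456. Of 3 somite, cartilage and muscle genes above the filter 1 was higher and 2 lower. The 9 of that list with a probe set had sums of 212 to 260.03, 179 to 286 and 210.4. The 1 dorsal gene above the filter, Lhx9, had -0.01. Of 9 blood and vessel genes 0 were above the filter, with sums of 26.7 to 157, 28.3 to 49.4 and 51.8. The 157 was mutant replicate 3, where the globin genes Hbe1 and Hbz had 94.5 and 15.5, beside at most 11.6 and 0.863 in any other pool. Of 9 mesenchyme genes 1 was above the filter, with sums of 52.5 to 67.7, 49.8 to 69.6 and 66.8. The part of these cell types, or of hindbrain tissue, in the Hox differences was not tested.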

How the data were processed

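The deposited values are intensities on a linear scale, 1 for each probe set on each array. The values show scaling by the authors, since the 2% trimmed mean of every array was 150.05; the sources used here name no software. Gene names came from the platform annotation, in which 31 of 32 members' Entrez identifiers were found in the RefSeq table, with unchanged symbols.

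Intensities were taken to log2 after adding the 25th percentile (8.25), and probe sets at or below the 40th percentile of mean log2 were left out. limma 3.58.1 in R 4.3.3 (lmFit, eBayes with trend) was fitted to all 18625 probe sets, with Benjamini-Hochberg adjustment. Mutant and wild type were compared on 8 arrays, and the control pool entered a 9-array fit. Class medians used 1 probe set per gene, the brightest. The fit was tested on simulated data.

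Every pool value is given for members under an unadjusted p of 0.05 or without overlap between mutant and wild type, and for the 5 Hox and 3 other members with the smallest p in each comparison; others were named after their values were seen. Alternatives changed the normalization, pseudocount, filter, eBayes, weights, covariates, block and pools. Counting members and settings at an unadjusted p under 0.05 was chosen after seeing the data. Pools are the replicate unit, and p-values measure the spread between them; the labels do not say whether pools shared litters. For arrays the number of pools limits the precision. The members, gene lists and tests were chosen with earlier results of these data known.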

Additional observations from a re-analysis of the deposited data

Results flagged for a closer look

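Of 56 groups of 4 pools tested, 2 had a pool far from the others, and chance flags about 1 in 20. Hoxa9 was 1819.9 in wild-type replicate 2, where the other 3 wild-type pools lay between 1404 and 1472, so the gap took 0.837 of the group's range. That pool also had the actin ratio of 19.2. Pbx4 was 14.4 in mutant replicate 1, where the other 3 mutant pools lay between 31.5 and 34.9, a gap of 0.835 of the range, at a level near the filter.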

How the results depend on the processing

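No member passed the adjusted threshold in any of the 4 comparisons under any alternative that was run; the lowest adjusted p was 0.439 between mutant and wild type and 0.963 for both transgenes against the negative control. Of the 28 members, 12 kept the sign of their difference between mutant and wild type in all 23 alternatives and 16 turned it at least once. The 3 probe sets called between mutant and wild type became 5 with median centring, 1 without a filter, 1 with a filter at the 60th percentile, 1 with the le2 tag as a covariate, and 0 by eBayes without trend (993 at an unadjusted p under 0.05), with the actin covariate (680) and on the 6 arrays with the le2 tag alone (670). Leaving out 1 pool gave 1 to 3. Both transgenes against the negative control gave 0 calls (581 at an unadjusted p under 0.05), and 1 with median centring, with a pseudocount 4 times smaller and with 1 probe set per gene; leaving out 1 pool gave 0 to 1. The count of members at an unadjusted p under 0.05, added after the data were seen, was 3 of 28, beside 4.93% of all probe sets. With the actin covariate it was 6 (3.65% of all), and on the arrays with the le2 tag alone 1 (3.6%). When 1 pool was left out it was 2 to 6, while the share of all probe sets itself ran from 3.41% to 8.34%. With the actin covariate the median was 0.27 for paralogs 4 to 8 and 0.12 for paralogs 9 to 11, and Pbx2 turned from -0.12 to 0.0064; the cause was not tested. Same-numbered mutant and wild-type pools correlated at 0.12, 0.09, -0.07 and 0.20 in their departures from the group means, so the numbers were not taken to pair them; with a replicate block 3 probe sets and 0 members were called. With 4 pools a group and 1 negative control, dim members such as Pbx4, Cdx2 and Hoxc8 have wide intervals.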
